A study of Mus musculus with 16 samples.

Results

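A pair of CpGs 4 bp apart, near the middle of a LINE1 bisulfite amplicon, were followed copy by copy through mouse embryonic stem cells of 4 genotypes. Neighbouring CpG sites with at least 10 calls in all 16 libraries were joined into runs, on 1 strand and with gaps of at most 200 bp, and runs with the span shared by 516 of the 753 runs were kept, the span being the distance from the first to the last CpG. The pair comprises the CpGs 41 and 45 bp from the first CpG of such a run, counted in the direction of the strand, and these distances are called offsets. Of 10185 sites the rule kept 916 members, 451 at offset 41 and 465 at offset 45. The 2 offsets were chosen by their level in the Uhrf1 knockout, so comparisons of level that involve the knockout are given as values with no test.

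All libraries came from J1 cells (129S4/SvJae background) in medium with serum, LIF and the 2i inhibitors of MEK and GSK3, 4 libraries per genotype. The genotypes were the unmodified line (wtJ1), a knockout of Uhrf1 (Uhrf1 KO), and cells labelled Uhrf1_H730A and Uhrf1_F46A, named for a point mutation in UHRF1 and written H730A and F46A here. No further treatment or time point distinguished the groups. The series states biological quadruplicates, without saying whether these were separate clones or cultures, so p-values measure the spread between these samples. The genotype could not be checked in the reads, because the amplicon lies in LINE1 and not in Uhrf1.

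LINE1 elements are retrotransposons that fill a large part of the mouse genome, and CpG methylation of their 5′ promoter region is one of the means by which cells silence them. UHRF1 recognises hemimethylated CpGs left by replication, ubiquitinates histone H3 through its RING domain and so brings DNMT1, the maintenance methyltransferase, to the daughter strand. F46A changes its ubiquitin-like (UBL) domain and H730A its RING domain. DNMT3A and DNMT3B add methylation without needing a hemimethylated template, and their expression was not measured here. In bisulfite sequencing an unmethylated C is read as T, so the methylation level is the percentage of calls that are still C.

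In 413 runs, called copies below, both CpGs of the pair were measured, in 38 runs only the CpG at offset 41, in 52 only that at offset 45, and in 13 neither. The missing CpGs, 65 at offset 41 and 51 at offset 45, were not listed at that position in any library, and none was lost to the minimum of 10 calls. Sites that only just met the minimum, with 10 to 12 calls in their lowest library, numbered 3 at offset 41 and 13 at offset 45. Their levels at offset 41 were 35.4% (wtJ1), 8.07% (Uhrf1 KO), 10.5% (H730A) and 7.58% (F46A), and at offset 45 they were 20.1, 8.14, 7.02 and 6.92% in the same order. No site lay just under the minimum.

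The libraries held 998982 to 1287040 calls at all 49722 sites listed in any of them, and the pair took 90270 to 113948 of these calls. Of the calls at the 10185 tested sites the pair took 9.81%, from 8.99% of these sites. A member site had a median of 63 to 79 calls in a library. The Wilson 95% interval of a library's level at 1 offset was between 0.217 and 0.420 points wide on either side. These were PCR reads without molecular identifiers, so that interval covers counting error only. Libraries 1 and 2 of wtJ1, libraries 3 and 4 of wtJ1, and libraries 2 and 3 of Uhrf1 KO were not told apart at 0.05 by chi-square tests. Their smallest chi-square p-values were 0.0528, 0.0833 and 0.0955, which does not establish that they are the same sample. As a precaution each of these pairs of libraries was counted as 1 sample in every mean ± SD. That leaves n = 2 for wtJ1 and n = 3 for Uhrf1 KO. LINE1 copies are near-identical, so the placement of a read on 1 copy, and with it a host gene, is uncertain.

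The CpG at offset 41 was among the most methylated CpGs of the amplicon in wild-type cells. Its level was 33.3, 32.5, 33.4 and 33.6% in the 4 wtJ1 libraries. In Uhrf1 KO it was 9.60, 9.60, 9.62 and 9.42%. The wtJ1 libraries were all above every other library, and the Uhrf1 KO libraries spanned the smallest range of the 4 genotypes at this CpG. In H730A the level was 9.22, 9.33, 11.4 and 8.00%, and in F46A it was 9.01, 6.05, 7.17 and 10.2%. The ranges of Uhrf1 KO, H730A and F46A overlapped. The means were 33.2 ± 0.439% for wtJ1 (SD, n = 2) and 9.54 ± 0.108% for Uhrf1 KO (n = 3), with 9.50 ± 1.43% for H730A and 8.10 ± 1.85% for F46A (n = 4).

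At offset 45 wild-type methylation was lower and the mutant levels were close to those at offset 41. The wtJ1 libraries had 21.1, 21.2, 21.5 and 21.6%, and the Uhrf1 KO libraries 8.74, 8.75, 8.83 and 8.50%. In H730A the level was 8.26, 8.81, 8.08 and 7.76%, and in F46A it was 7.97, 8.52, 5.90 and 9.10%. As at offset 41, wtJ1 stood apart and the other 3 genotypes overlapped. The means were 21.4 ± 0.275% for wtJ1 (SD, n = 2) and 8.68 ± 0.154% for Uhrf1 KO (n = 3), with 8.23 ± 0.439% for H730A and 7.87 ± 1.39% for F46A (n = 4).

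**Figure D1:**
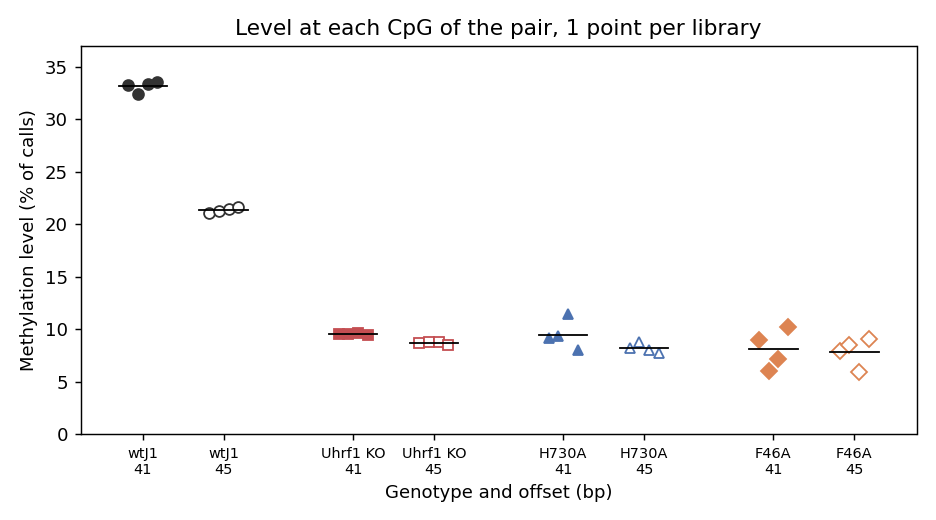
Methylation level (percent of calls, vertical axis) at offset 41 (filled) and offset 45 (open) in each library of the 4 genotypes (horizontal axis), 1 point per library with a bar at the mean of 4 libraries. The 4 wtJ1 libraries lie at 32.5 to 33.6% and 21.1 to 21.6%, and every other library lies at or below 11.4%.

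Among the 14 offsets measured in at least 30 of the runs, offset 41 had rank 2 by level in wtJ1 and offset 45 rank 11. In Uhrf1 KO the pair had ranks 2 and 3, behind offset 82 at 12%, and the CpGs on either side of the pair, at offsets 26 and 57, had 0.930 and 2.49%. As a share of wtJ1, Uhrf1 KO kept 28.8% of the level at offset 41 and 40.6% at offset 45. Offset 45 thus had the highest share of the 14 offsets, while offset 41 had rank 4, after offsets 82 (38%) and 102 (31.2%) and just ahead of offset 95 (27.9%). The name of a retained pair therefore describes the knockout level of both CpGs, but not a rank at the top for both, and these knockout values are those that chose the pair.

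The mutants that played no part in the choice kept 28.6% (H730A) and 24.4% (F46A) of the wtJ1 level at offset 41, and 38.5% and 36.8% at offset 45. By that share offset 45 had rank 2 of 14 in H730A and rank 1 in F46A, while offset 41 had rank 10 in H730A and rank 5 in F46A. In H730A the highest share lay instead at offset 105, with 43.4% of wtJ1, where Uhrf1 KO had 9.48%.

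**Figure D2:**
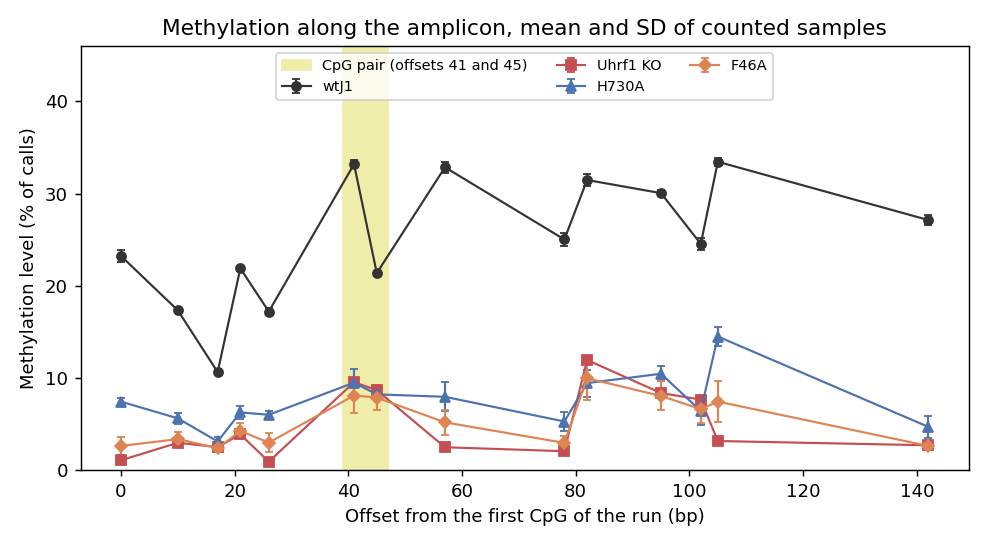
Mean methylation level (percent of calls, vertical axis) at the 14 offsets of the runs (distance from the first CpG in bp, horizontal axis) for each genotype, with the SD as error bars (n = 2 for wtJ1, 3 for Uhrf1 KO and 4 for H730A and F46A) and the pair shaded. At the pair the 3 mutant genotypes lie together between 7.87 and 9.54%, whereas at the neighbouring offset 57 they lie apart, at 2.49, 7.96 and 5.19% for Uhrf1 KO, H730A and F46A.

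Loss of methylation at the pair in both point mutants exceeded the spread between libraries. At offset 41 H730A was 23.7 points lower than wtJ1 (difference -23.7 points, 95% interval -25.6 to -21.0) and F46A 25.1 points lower (-25.1, interval -27.5 to -22.3). At offset 45 the differences were -13.1 points (interval -13.9 to -12.3) for H730A and -13.5 points (interval -15.7 to -12.0) for F46A. Each was lower in 4 of 4 libraries, with an exact two-sided permutation p of 0.0286, the smallest that 4 against 4 can give, and the same value after Benjamini-Hochberg adjustment over the 14 offsets. All 14 offsets reached that p in both comparisons, which share the wtJ1 libraries. With the libraries that were not told apart counted as 1, the smallest possible permutation p is 0.133, and no difference from wtJ1 can pass.

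Beside these, Uhrf1 KO was lower than wtJ1 by a difference of -23.6 points at offset 41 and -12.7 points at offset 45. H730A differed from Uhrf1 KO by -0.06 points at offset 41 and -0.48 points at offset 45, and F46A by -1.46 and -0.83 points. No test was made of these, for the reason given above.

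The 2 point mutants were not distinguished from each other at either CpG. F46A minus H730A was -1.40 points at offset 41 (interval -5.39 to 2.18, exact permutation p = 0.286, adjusted 0.364) and -0.35 points at offset 45 (interval -2.91 to 1.34, exact permutation p = 0.8, adjusted 0.83). The intervals leave room for differences of several points in either direction. At 7 of the 14 offsets, none of them in the pair, the 4 libraries of F46A and the 4 of H730A did not overlap, but with an adjusted p of 0.0571 no offset passed.

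Within copies, the wild-type step between the 2 CpGs was smaller in every library of the other genotypes. Over the 413 copies with both, the level at offset 45 minus that at offset 41 was -12.1, -11.2, -11.7 and -11.6 points in the wtJ1 libraries. It was -0.847, -0.781, -0.803 and -0.843 points in Uhrf1 KO. H730A had -0.928, -0.453, -3.31 and -0.196 points, and F46A -1.04, 2.62, -1.32 and -1.0 points. Every library of Uhrf1 KO, H730A and F46A was above every wtJ1 library, and only library 2 of F46A had the higher level at offset 45.

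The step was 10.4 points smaller in H730A than in wtJ1 (95% interval 7.86 to 11.9) and 11.5 points smaller in F46A (interval 9.85 to 14.7), in 4 of 4 libraries each. Both had the smallest exact permutation p, 0.0286, but an adjusted p of 0.0571 over all 6 comparisons between genotypes, the family used throughout for this measure, and so did not pass. That family includes the 3 comparisons with Uhrf1 KO, from which nothing is read because the knockout levels chose the pair; in Uhrf1 KO the step was 10.8 points smaller than in wtJ1. Adjusted over the other 3 comparisons alone, a family added after the values were seen, the exact permutation p became 0.0429 for H730A and for F46A, so the call depends on the family. F46A minus H730A was 1.04 points (interval -1.13 to 5.93, exact permutation p = 0.571, adjusted 0.857). Without library 2 of F46A that difference was 0.10 points and the difference from wtJ1 10.5 points.

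Since the levels themselves differed between genotypes, the ratio of both CpGs was also taken. The log2 ratio of offset 45 to offset 41 was -0.65, -0.61, -0.62 and -0.61 in the wtJ1 libraries and between -0.13 and -0.12 in those of Uhrf1 KO. H730A had -0.15, -0.07, -0.49 and -0.04, so that its library 3 lay nearest to wtJ1. F46A had -0.17, 0.52, -0.29 and -0.15, and its mean of -0.02 combines library 2 with 3 libraries of the opposite sign. No library of H730A or F46A overlapped wtJ1. The mean was higher than in wtJ1 by 0.43 in H730A and 0.60 in F46A, and by 0.54 without library 3 of H730A and 0.42 without library 2 of F46A. By the exact permutation test the adjusted p was again 0.0571 over 6 comparisons and 0.0429 over the 3 without Uhrf1 KO.

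**Figure D3:**
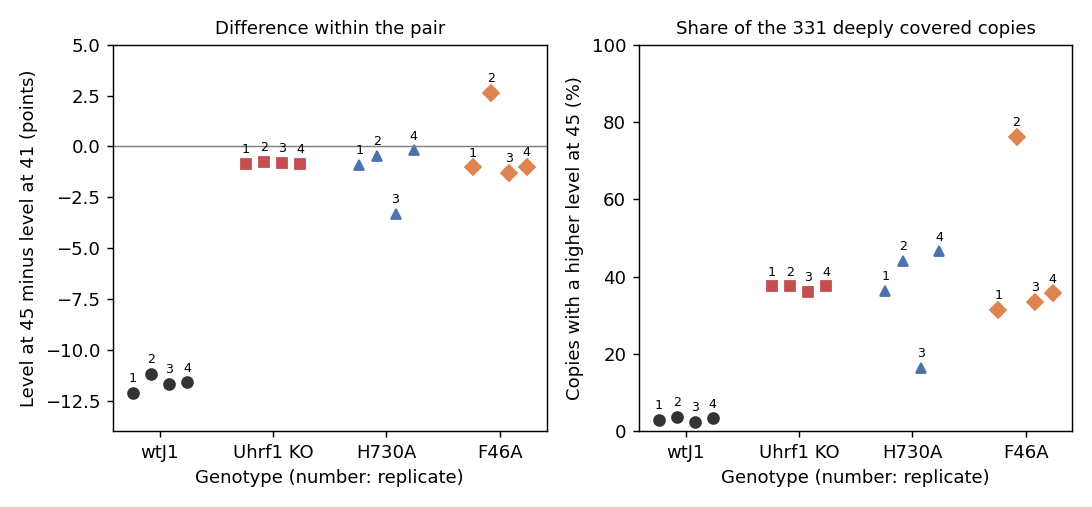
Left, level at offset 45 minus level at offset 41 (points, vertical axis) in each library by genotype (horizontal axis), with the replicate number beside each point; right, percentage of the 331 deeply covered copies with the higher level at offset 45. The wtJ1 libraries lie near -12 points and at most 3.63% of copies, and library 2 of F46A lies at 2.62 points and 76.1%.

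Relative to the rest of the amplicon, the level of the pair separated all 4 genotypes. The level of the pair itself overlapped between Uhrf1 KO, H730A and F46A. The level over both CpGs of the pair was divided by the level over all other offsets of the same runs. That ratio was 1.08, 1.07, 1.06 and 1.07 in the wtJ1 libraries, so the 2 CpGs together had about the level of all other offsets together. Taken singly they did not. In wtJ1 offset 41 was above the rest of its copy in 327 of the 331 deeply covered copies, and offset 45 in 29. The ratio was 2.17, 2.11, 2.08 and 2.08 in Uhrf1 KO, which is the property the pair was chosen for. In H730A the ratio was 1.2, 1.21, 1.12 and 1.21, and in F46A 1.62, 1.47, 1.66 and 1.57. The ranges of the 4 genotypes did not overlap.

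The ratio was higher than in wtJ1 by 0.113 in H730A (95% interval 0.0339 to 0.153) and by 0.507 in F46A (interval 0.391 to 0.596), and higher in F46A than in H730A by 0.394 (interval 0.258 to 0.543). Each had an exact two-sided permutation p of 0.0286, with the same value adjusted over these 3 comparisons, in 4 of 4 libraries. The rise in H730A was not shared by both CpGs. There offset 41 kept 28.6% of its wtJ1 level and offset 45 kept 38.5%, while the other offsets together kept 29.5%. In F46A both CpGs, with 24.4 and 36.8%, kept more than the other offsets, with 20.0%. The pair averaged 9.11 ± 0.131% for Uhrf1 KO (SD, n = 3), 8.86 ± 0.772% for H730A and 7.99 ± 1.36% for F46A (n = 4), while the other offsets averaged 4.31 ± 0.0816%, 7.49 ± 0.918% and 5.07 ± 0.907% in the same order. The contrast of both levels in Uhrf1 KO is what chose the pair. A high F46A level beside that of H730A was not particular to the pair. F46A divided by H730A was 0.853 at offset 41 and 0.957 at offset 45, but 1.06 at offset 82 and 1.03 at offset 102. It was 0.354 to 0.770 at the remaining offsets. In wtJ1 the levels were 27.2 ± 0.350% for the pair and 25.4 ± 0.503% for the other offsets (n = 2).

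**Figure D4:**
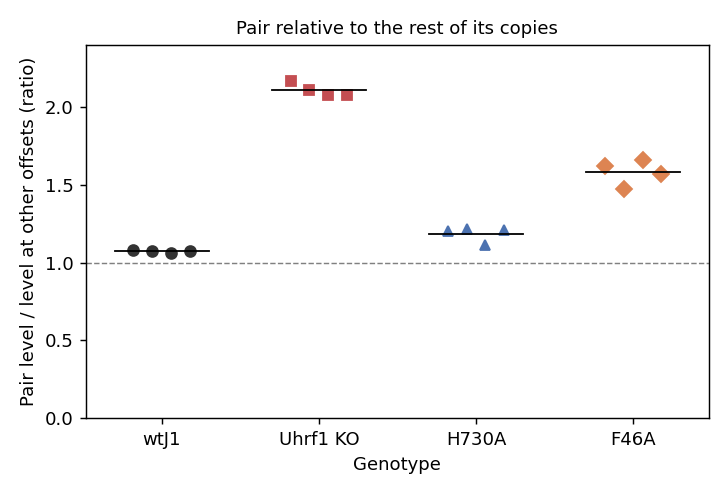
Level of the pair divided by the level at the other offsets of the same runs (ratio, vertical axis from 0) in each library by genotype (horizontal axis), with a bar at the mean of 4 libraries and a dashed line at 1. The ratio is lowest in wtJ1 (1.06 to 1.08), then H730A (1.12 to 1.21), F46A (1.47 to 1.66) and Uhrf1 KO (2.08 to 2.17), with no overlap.

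Site by site, a model of methylated calls among all calls (quasi-binomial, with limma's moderated dispersion and Benjamini-Hochberg adjustment over all 10185 sites at 0.05) called most members lower than wtJ1 in H730A and F46A. For H730A it called 448 of 451 sites at offset 41 and 401 of 465 at offset 45, against 91.4% of all tested sites. For F46A it called 445 of 451 and 419 of 465, against 94.5%. No member was called higher, where the background was 0.0196% in both comparisons. The median difference over members was -24.1 points at offset 41 and -12.9 points at offset 45 for H730A, and -17.5 points over all sites. For F46A these medians were -25.5, -13.0 and -19.7 points. In points, the CpG at offset 41 thus lost more, and that at offset 45 less, than the median site. As a share of the wtJ1 level, offset 41 kept 28.6% in H730A and 24.4% in F46A. The other offsets of the same runs kept 29.5% and 20.0%, so the order in F46A was the opposite by share. In Uhrf1 KO 445 of 451 and 400 of 465 sites were called lower, with a background of 94.2%, and nothing is read from this.

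Between the mutants few members were called. Against Uhrf1 KO, H730A was called higher at 9 of 916 members, with a background of 21.4%, and lower at 6, with a background of 0.785%. F46A against Uhrf1 KO gave 0 calls in either direction, with a background of 0%. At an unadjusted p under 0.05 there were 42 of 916 members in the same model, about the share that this threshold gives by chance. With limma on logit values 0 members were called, against 0 lower and 1 higher over all sites. Fisher's exact test on summed calls gave 7 members lower and 0 higher, against 32 lower and 594 higher over all sites. Nothing is read from these counts either. F46A against H730A, which the choice of the pair did not use, gave 5 members called lower and 0 higher, or 0.546% and 0%, against 2.39% and 0.00982% of all sites. The median difference was -1.13 points at offset 41 and -0.26 points at offset 45, against -1.88 points over all sites. These 5 calls depend on every library, since leaving out any 1 of the 8 left 0 or 1. That was not particular to the members, since the calls lower over all sites fell from 243 to between 0 and 137.

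Of the 4 called sites with the largest differences, 3 are given here, with positions in the mm10 build. At chr3:91127005 (plus strand, offset 41, outside annotated genes) H730A had 33.9, 23.8, 31.2 and 23.9%, and F46A 3.08, 3.51, 17.4 and 8.20%, with an adjusted p of 0.0361 in the quasi-binomial model. At chr1:150233182 (plus strand, offset 45, outside annotated genes) H730A had 42.1, 22.2, 26.2 and 30.5%, and F46A 9.84, 12.8, 5.17 and 9.80%, with an adjusted p of 0.0336. In both, all H730A libraries were above all F46A libraries.

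At chr4:115351811 (minus strand, offset 41, outside annotated genes) H730A had 18.2, 21.2, 26.1 and 15.6%, and F46A 2.44, 2.08, 3.57 and 7.50%, with an adjusted p of 0.0384. Here too the groups did not overlap. The call with the smallest difference, named after its value was seen, was chr3:91127009, the offset 45 CpG of the first copy, with 23.1 ± 2.85% in H730A and 8.44 ± 4.41% in F46A (SD, n = 4) and an adjusted p of 0.0482. So 1 copy, on chromosome 3, held both of its CpGs among the 5 calls.

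The 413 copies lay on 20 chromosomes, 232 on the plus and 181 on the minus strand, 58 of them on the X chromosome. By gene span 107 lay within a RefSeq gene (GRCm38.p6), 85 of these protein-coding, and 306 outside. Whether those sites are exonic or intronic was not analysed here. In 331 copies both CpGs had at least 30 calls in every library, and these are used for the spread between copies, from the calls of a genotype's 4 libraries added together. Copies are not replicates of a genotype, so no test was made across them.

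In wtJ1 the order of the 2 CpGs held copy by copy. Offset 41 was higher than offset 45 in 326 of 331 copies, with medians of 33.7 and 20.9%. In Uhrf1 KO it was higher in 225 copies (medians 9.39 and 8.47%), in H730A in 237 (9.21 and 8.12%) and in F46A in 168 (8.04 and 7.92%). By library, offset 45 was the higher in 2.42 to 3.63% of copies in wtJ1 and 36 to 37.5% in Uhrf1 KO. In H730A the shares were 36.3, 44.1, 16.3 and 46.5%, and in F46A 31.4, 76.1, 33.5 and 35.6%. Library 3 of H730A and library 2 of F46A were apart from the other libraries of their genotype, in opposite directions, and in library 2 of F46A 252 of 331 copies had the higher level at offset 45.

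The copies differed from each other by more than counting error. At offset 41 the SD across copies was 7.21 points in wtJ1, where binomial counting alone gives 2.58, and 3.62 points in H730A, where it gives 1.61. In Uhrf1 KO the SD was 2.20 against 1.54 points and in F46A 2.25 against 1.51 points. Across copies the levels at both CpGs had a Pearson r of 0.81 in wtJ1, 0.80 in H730A, 0.49 in Uhrf1 KO and 0.51 in F46A (n = 331 copies, a description, since both CpGs share reads, library and depth). The copies of wtJ1 and H730A thus spread over a wider range of levels, along the diagonal, than those of Uhrf1 KO and F46A. The r values were not corrected for counting error. In Uhrf1 KO and F46A that error was closer to the SD across copies than in wtJ1 and H730A.

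**Figure D5:**
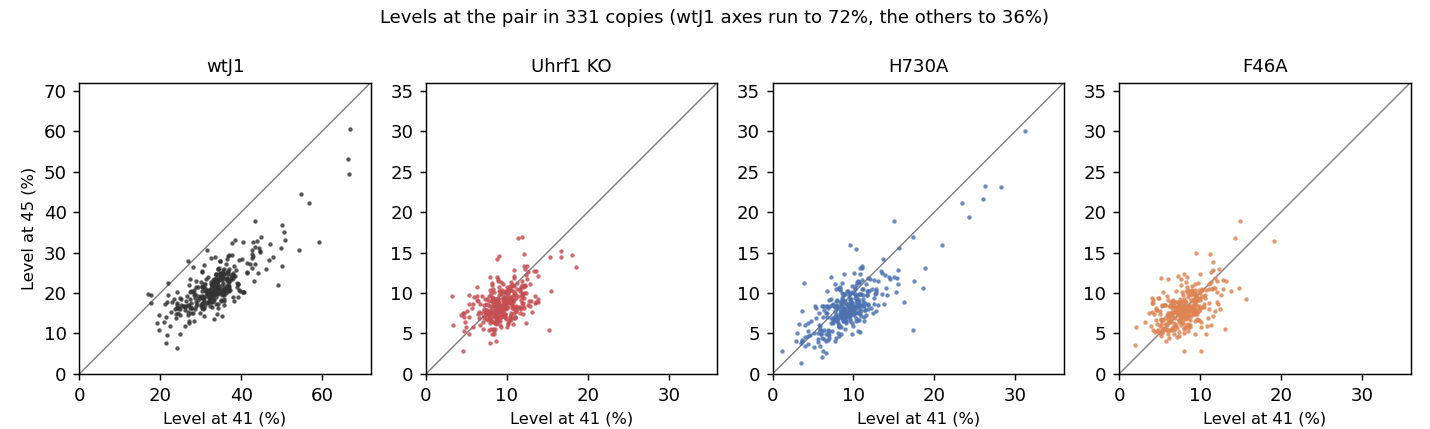
Level at offset 45 (percent, vertical axis) against level at offset 41 (percent, horizontal axis) in each of the 331 deeply covered copies, all 4 libraries of a genotype added together, with the line of equal levels; the wtJ1 axes run higher than the others. Copies lie below the line in 326 of 331 cases in wtJ1 and in 168 in F46A, and a tail of H730A copies reaches 31.3%.

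Set against the other offsets of the same copy, the pair was the higher in 275 of 331 copies in wtJ1, 272 in H730A, 327 in F46A and 331 in Uhrf1 KO. Taken alone, offset 45 was above the rest of its copy in 29 copies in wtJ1, 235 in H730A and 319 in F46A. In Uhrf1 KO, where the choice was made, it was above in 331. The position that was below its surroundings in nearly all wild-type copies was thus above them in most copies of both point mutants.

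The copy with the most calls, chr2:42083590-42083732 on the plus strand, lay within the span of Lrp1b, which encodes a large receptor of the LDL receptor family. With 1754 to 2358 calls per CpG and library it resembled the pooled values. At offset 41 (position 42083631) wtJ1 had 30.5, 30.7, 31.2 and 31.7%, and at offset 45 (42083635) it had 20.6, 20.9, 19.6 and 20.6%. Uhrf1 KO averaged 8.86 ± 1.01% and 8.29 ± 0.352% (SD, n = 3), H730A 9.22 ± 0.825% and 7.48 ± 0.561% (n = 4), and F46A 8.13 ± 2.25% and 7.59 ± 2.28% (n = 4). The 10 deepest copies together held 14.0% of the calls of the pair and the 3 deepest 6.82%.

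The next 2 by calls lay outside annotated genes. At chr1:18538024-18538166 (plus strand) wtJ1 had 34.2 ± 0.287% at offset 41 and 19.7 ± 0.0265% at offset 45 (SD, n = 2), and F46A 7.13 ± 1.46% and 7.34 ± 1.26% (n = 4). At chr4:122712883-122713025 (minus strand) wtJ1 had 32.2 ± 1.14% and 19.3 ± 0.797% (n = 2), and F46A 8.29 ± 2.12% and 8.15 ± 1.98% (n = 4). In the first, the step averaged -1.64 ± 0.368 points in Uhrf1 KO (n = 3), -1.78 ± 1.62 in H730A and 0.212 ± 1.56 in F46A (n = 4), and in the second -1.84 ± 1.19, -2.18 ± 1.02 and -0.142 ± 2.6 points. In F46A the mean step lay within the spread between libraries in both copies.

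The copies most methylated at the pair in wild type lay outside annotated genes. At chr1:150233137-150233279 (plus strand) offset 41 had 65.1, 63.8, 68.8 and 69.7% in wtJ1 and offset 45 had 49.2, 58.6, 70.3 and 63.6%, with 58 to 66 calls each. The same copy had 31.3 ± 5.54% and 30.3 ± 8.59% in H730A, the highest pair level of any of the 331 copies in that genotype, and 16.4 ± 3.75% and 15.3 ± 5.02% in Uhrf1 KO (n = 3). In F46A it had 15.7 ± 0.943% and 9.39 ± 3.14% (n = 4). At chr2:23940078-23940220 (plus strand) offset 41 had 67.1 ± 6.92% in wtJ1 (n = 2), 25.7 ± 4.77% in H730A and 14.4 ± 5.80% in F46A (n = 4).

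The third, chr13:62420030-62420172 (plus strand), had 66.1 ± 5.99% at offset 41 in wtJ1 (n = 2). Its H730A libraries had 6.25, 7.35, 26.1 and 6.49%, so library 3 alone was high. High wild-type methylation was therefore not accompanied by a high H730A level in every library of each of these copies.

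The other copies with the highest H730A level were chr3:91126964-91127106, described above, with 28.2 ± 5.13% at offset 41 and 23.1 ± 2.85% at offset 45, and chr2:23939133-23939275 (plus strand, outside annotated genes), with 26.6 ± 8.93% and 23.1 ± 3.35% (SD, n = 4). The latter had 14.6 ± 5.56% and 18.8 ± 3.62% in F46A and 16.3 ± 2.35% and 14.9 ± 2.14% in Uhrf1 KO (n = 3).

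At the other end, 2 of the 3 copies least methylated at the pair in wild type were on the X chromosome, and all 3 lay outside annotated genes on the plus strand. At chrX:40833489-40833631 wtJ1 had 20.9 ± 5.18% at offset 41 and 7.48 ± 1.10% at offset 45 (n = 2), and the 3 mutant genotypes averaged between 1.46 and 4.75% at either CpG. At chrX:152524182-152524324 wtJ1 had 24.2 ± 3.51% and 6.17 ± 3.05% (n = 2), and at offset 45 Uhrf1 KO had 6.68 ± 3.89% (n = 3) and H730A 8.41 ± 3.23% (n = 4). A drop from wild type beyond the spread was not seen at offset 45 of this copy. At chr12:35854299-35854441 wtJ1 had 19.7 ± 2.49% and 10.8 ± 1.79% (n = 2), and Uhrf1 KO 4.63 ± 0.689% and 8.53 ± 3.61% (n = 3).

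In a few copies the wild-type order was reversed or extreme. At chr16:25566018-25566160 (plus strand) offset 45 minus offset 41 averaged 3.97 points in wtJ1, with 15.2% and 39.1% in library 4 and equal levels of 10.9% in library 1. At chr1:61514430-61514572 (plus strand) it averaged 1.78 points, with an SD of 3.41 (n = 2). Neither reversal exceeded the spread between libraries. The opposite extreme was chr10:129413299-129413441 (plus strand) with -28 points and chr17:39992734-39992876 (plus strand) with -26.7 points. In the latter, wtJ1 had 62.3, 56.7, 63.1 and 54.5% at offset 41 and 35.1, 29.2, 38.1 and 27.3% at offset 45, with no overlap. H730A had 24.8 ± 5.53% and 19.5 ± 3.25% there, against 10.1 ± 5.50% and 10.8 ± 3.06% in F46A (n = 4). All 4 copies lay outside annotated genes.

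Levels differed little by host gene, X linkage or strand. In copies within genes offset 41 was lower than outside by a difference of -1.41 ± 0.404 points in wtJ1 (SD, n = 2) and -0.580 ± 0.376 points in H730A and -0.365 ± 0.118 points in F46A (n = 4), in 4 of 4 libraries each. Offset 45 was also lower within genes in 4 of 4 libraries of these genotypes. In Uhrf1 KO the difference at offset 41 was -0.140 ± 0.301 points (n = 3), with 2 of 4 libraries lower. X-linked copies differed from autosomal ones by 0.245 to 0.724 points at offset 41, and plus-strand from minus-strand copies by -0.747 points in wtJ1 and 0.113 to 0.218 points in the other genotypes. Split into 3 classes by depth, the shallowest copies of wtJ1 had 2.39 ± 0.0269 points more at offset 41 than the deepest (n = 2).

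Runs in which only 1 CpG of the pair was measured had lower levels at that CpG. Offset 45 without its partner differed from offset 45 in the paired copies by -3.25 ± 1.58 points for wtJ1 (SD, n = 2), -1.49 ± 0.0699 points for Uhrf1 KO (n = 3), and -1.10 ± 0.254 and -1.56 ± 0.726 points for H730A and F46A (n = 4), lower in 16 of 16 libraries. The other offsets of those 52 runs had 28 ± 0.145% in wtJ1, against 25.2 ± 0.499% in the 413 copies (n = 2). Offset 41 without its partner differed by -0.905 ± 0.942 points for wtJ1 and -1.28 ± 0.613, -0.426 ± 0.239 and -1.10 ± 1.35 points for Uhrf1 KO, H730A and F46A, lower in 14 of 16 libraries.

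Runs that the rule left out because of another span gave similar values. Of 237 such runs, 204 could be placed on the offsets by their CpG spacing, which yielded 152 sites at offset 41 and 190 at offset 45. Offset 41 had 30.6 ± 0.410% in wtJ1 (SD, n = 2) and 8.85 ± 0.123% in Uhrf1 KO (n = 3), with 8.82 ± 1.35% for H730A and 7.57 ± 1.59% for F46A (n = 4). Offset 45 had 18.9 ± 0.0253, 8.28 ± 0.191, 7.72 ± 0.220 and 7.33 ± 1.41% in the same order. In the 144 runs with both, the step from offset 41 to offset 45 was -11.4 points for wtJ1 and -0.437, -0.933 and -0.0924 points for Uhrf1 KO, H730A and F46A. The ratio of the pair to the other offsets was 1.04, 2.02, 1.18 and 1.51. These runs come from the same libraries and share their deviations.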

How the data were processed

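LINE1 amplicons from bisulfite-converted genomic DNA were sequenced in 16 libraries, and groups and replicate numbers were taken from the sample titles. The deposited files hold, per the file headers, 2 counts for each CpG, of C calls and of C or T calls together, and a ratio that is the fraction of C calls. Trim Galore 0.3.1, BSMAP 2.90, methylKit and the build mm10 appear, with no roles, in the submitters' processing notes. For reads that match several copies, the placement is not given in the sources used. The files hold CpG context only, so the conversion rate was not estimated.

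Levels are methylated calls divided by calls, summed over the sites of an offset in a library. Library values were compared by exact two-sided permutation tests, with intervals from inverting the test, and sites by a quasi-binomial model on the counts (R 4.3.3, limma 3.58.1, dispersion not below 1), tested on simulated data. Other steps used Python 3.11.15 with scipy 1.17.1. Tests used all 4 libraries of a genotype. Libraries were counted as 1 sample in means where chi-square tests of 1 site per run and of the calls per offset found no difference at 0.05. Each library was merged with at most 1 other. Libraries 3 and 4 of Uhrf1 KO, with a smallest chi-square p of 0.0701, therefore stayed apart. The members and lists were chosen with earlier results of these data known. Copies were named by the most calls (3), the highest (3) and lowest (3) wtJ1 level, the largest (2) and lowest (2) difference within the pair in wtJ1, the highest H730A level (3), and the 4 largest calls between F46A and H730A, of which 1 is not reported here. Alternatives were coverage minimums of 30 and 100 calls, unweighted means, removal of the deepest 10% of copies and Fisher's exact test. Others were limma on logit values, merged libraries, a replicate block and each library left out. Merging as for the means, the log2 ratio and adjustment over 3 comparisons were added after the data were seen.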

Additional observations from a re-analysis of the deposited data

Results flagged for a closer look

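Each of 72 groups of 4 libraries, all of H730A or F46A, was searched for a value far from the other 3. Chance alone gives such a value in about 1 of 20 groups, and the values flagged below were not more frequent than that. Groups of wtJ1 and Uhrf1 KO, with fewer counted samples, were not searched. For offset 45 minus offset 41, library 2 of F46A stood apart at 2.62 points, with the other F46A libraries between -1.32 and -1.0 points. For the level of the pair divided by that of the other offsets, library 3 of H730A stood apart at 1.12, with the others at 1.2 to 1.21. At chr13:62420071 (offset 41) the same library had 26.1%, with the other H730A libraries between 6.25 and 7.35%.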

How the results depend on the processing

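Of 470 values of 30 results under alternatives, 355 were counted as unchanged. For a tested value that meant the same direction and the same side of 0.05, whatever its size. For an untested level it meant the same direction and a change smaller than the spread between libraries. For a count of called members it meant a similar number. Every exact test against wtJ1 rests on 4 libraries per side, and smaller designs cannot pass 0.05. With wtJ1 libraries 1 and 2 counted as 1, the differences from wtJ1 were -23.8 and -13.2 points (H730A, offsets 41 and 45) and -25.2 and -13.6 points (F46A), and those of the ratio to the other offsets 0.114 and 0.508, with adjusted p = 0.0571 by exact permutation. With libraries merged as for the means they were -23.7, -13.1, -25.1 and -13.5 points, 0.113 and 0.507, at an adjusted exact permutation p of 0.133. With the replicate number as a block the values are the same, with 0.394 for the ratio of F46A against H730A, at an exact paired p of 0.125. Same-numbered libraries correlated by -0.111 to 0.117 over runs, and differently numbered ones by -0.235 to 0.259. For H730A against wtJ1 these were 0.0216 to 0.117 and -0.0962 to 0.0415. A shift common to a whole library was removed beforehand, so these values cannot decide whether the numbers pair the libraries. Adjusted over the 3 comparisons without Uhrf1 KO, the pair difference passed for H730A (10.4 points) and F46A (11.5 points) against wtJ1, at 0.0429.

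Leaving out 1 library gave -24.3 to -23.2 and -13.3 to -13.0 points for H730A, -25.8 to -24.4 and -13.9 to -12.8 points for F46A, and 0.103 to 0.136 and 0.480 to 0.542 for their ratios, with 0.368 to 0.430 for F46A against H730A, each at adjusted p = 0.0571. At offset 41 H730A minus Uhrf1 KO changed sign, from -0.708 to 0.437 points, and was 0.256 unweighted and 0.128 without the deepest 10% of copies. The pair difference changed sign for H730A against Uhrf1 KO (-0.744 to 0.293, positive without H730A library 3) and F46A against Uhrf1 KO (-0.302 to 1.01, negative without F46A library 2), and F46A minus H730A at offset 45 ranged from -0.762 to 0.305 (positive without F46A library 3). Uhrf1 KO minus wtJ1 was -22.7 and -12.2 points at 100 calls, -24.3 and -13.0 unweighted, and -24.6 and -13.1 without the deepest copies.

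Members called between H730A and Uhrf1 KO (6 lower, 9 higher) became 16 and 13 at 30 calls. They became 22 and 21 by Fisher's exact test, which ignores the spread between libraries, and 0 and 0 with the replicate block. Without 1 library, 3 to 6 were lower and 6 to 9 higher. All sites tested gave 80 lower and 2177 higher in the main setting, and 140 and 2269 at 30 calls. By Fisher's test they gave 207 and 2904, with the block 0 and 0, and without 1 library 30 to 90 and 1575 to 1954. F46A against Uhrf1 KO had 7 lower and 0 higher by Fisher's test, where all sites had 32 and 594. F46A against H730A (5 lower, 0 higher) had 8 and 1 at 30 calls and 26 and 5 by Fisher's test. It had 0 lower by limma on logit values and by the block, and 0 to 1 without 1 library. For this comparison all sites had 243 lower and 1 higher in the main setting, and 692 and 4 at 30 calls. By Fisher's test they had 1375 and 32. The sites called lower numbered 2 by limma, 0 by the block and 0 to 137 without 1 library. The cause of these changes was not tested.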

Other observations

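Sorted by the wtJ1 level of their other offsets, a grouping added after the data were seen, the 413 copies differed at the pair in every genotype. The differences were larger in wtJ1 and H730A than in Uhrf1 KO and F46A. Because wtJ1 levels of the same copies set the classes, wtJ1 is not on equal terms with the other genotypes here. In 4 classes of copies, from the lowest to the highest, the level at offset 41 was 27.5 and 40.7% in wtJ1, 7.91 and 12.3% in H730A, 7.19 and 9.34% in F46A, and 8.77 and 10.6% in Uhrf1 KO. At offset 45 the levels were 17.0 and 27.9% in wtJ1, 7.12 and 10.8% in H730A, 7.08 and 9.20% in F46A, and 8.03 and 9.74% in Uhrf1 KO. The ratio of the pair to the other offsets was 1.23 and 1.19 in H730A, 1.62 and 1.48 in F46A, and 2.18 and 2.00 in Uhrf1 KO. The high ratio in Uhrf1 KO is the property the pair was chosen by, and nothing is read from its place; F46A was above H730A in both classes.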
